A study of Rattus norvegicus with 12 samples.

Results

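The genes described here encode histones, the proteins that DNA is wound around. They were the protein-coding genes of the deposited table whose symbols follow the histone naming scheme and whose mean over all 12 libraries reached 0.5 TPM. Of 30562 genes in the table, 40 had such a symbol and 25 reached that level: 4 linker histone genes, 11 replication-dependent core genes and 10 variant genes. The lowest mean inside the threshold was 0.637 TPM (H2bc18) and the highest mean outside it was 0.453 TPM, at a further locus named H3c1. The 15 genes outside were 5 linker genes (H1f1, H1f5, H1f6, H1f7 and H1f8), 7 core loci and 3 variant loci, so counts over the 25 do not stand for all histone genes.

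The RNA came from H9c2, a cell line from embryonic rat heart. The 12 libraries fell into 4 groups of 3: cells given MMA and FA together (MMA+FA), cells given MMA, cells given FA, and control cells (Ctrl). The series' title names methylmalonic acid, an organic acid that builds up when propionate breakdown is impaired, and folate, a vitamin that carries single-carbon units. The doses used and the time in culture are not stated in the sources at hand. Nothing in the labels says that replicates were separate cultures, so p-values speak of the spread among these libraries, which may be technical. The labels call the cells cardiomyocytes. Of 12 cardiomyocyte markers, 8 stayed under a mean of 0.5 TPM, among them Myh6 at 0.045 and Myh7 at 0.01 TPM, while Tnnt2, Nkx2-5, Gata4 and Tnni3 were above it. Values were TPM, a share of each library corrected for gene length and the number of reads behind a library cannot be read from it.

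Core histones (H2A, H2B, H3 and H4) form the nucleosome, and linker histones of the H1 family bind the DNA between nucleosomes. Replication-dependent core genes, and the linker genes H1f2 and H1f4, lie in clusters and are expressed in S phase. Their mRNAs normally end in a stem-loop and carry no polyA tail, so a library made from polyA RNA measures only the part that was captured. Most variant genes and the linker genes H1f0 and H1f10 make polyadenylated mRNA and are expressed outside S phase as well. How fully each histone transcript was captured was not tested, and in a bulk library fewer cells with a transcript and less of it per cell cannot be told apart.

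The 150 bases before the start are shown for all 4 linker genes and for H3f3b, because H1f0, H1f10 and H3f3b are the genes with a called interaction below and H1f2 and H1f4 are the other linker genes. They are from RefSeq on the assembly GRCr8, a different build from the one the reads were aligned to, matched by symbol. Each reads towards the gene, and capitals mark the CCAAT box, the TATAAA box, the octamer ATTTGCAT or its reverse complement, and the linker box AAACACA. The coordinates are chr7:112473130-112473279, plus strand, for H1f0; chr4:121998898-121999047, minus strand, for H1f10; chr10:101757637-101757786, minus strand, for H3f3b; chr17:41820454-41820603, minus strand, for H1f2; and chr17:41914275-41914424, plus strand, for H1f4.
H1f0: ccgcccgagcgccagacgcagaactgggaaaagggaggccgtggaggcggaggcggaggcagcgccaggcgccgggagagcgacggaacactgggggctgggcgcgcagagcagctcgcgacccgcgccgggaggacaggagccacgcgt
H1f10: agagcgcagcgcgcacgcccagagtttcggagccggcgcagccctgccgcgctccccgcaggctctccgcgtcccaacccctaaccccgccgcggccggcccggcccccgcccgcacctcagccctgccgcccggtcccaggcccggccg
H3f3b: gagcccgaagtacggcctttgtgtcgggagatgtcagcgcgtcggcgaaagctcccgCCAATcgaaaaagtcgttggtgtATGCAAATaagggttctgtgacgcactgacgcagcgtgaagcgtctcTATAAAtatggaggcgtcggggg
H1f2: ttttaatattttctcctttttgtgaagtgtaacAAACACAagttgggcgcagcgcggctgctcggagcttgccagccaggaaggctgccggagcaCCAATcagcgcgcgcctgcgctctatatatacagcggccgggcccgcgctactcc
H1f4: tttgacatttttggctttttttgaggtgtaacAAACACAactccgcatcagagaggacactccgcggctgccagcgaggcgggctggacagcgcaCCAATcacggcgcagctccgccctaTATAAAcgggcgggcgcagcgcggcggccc

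H1f2 and H1f4 share a similar layout. AAACACA, the box found in promoters of cluster H1 genes, lies at -117 to -111 in H1f2 and at -118 to -112 in H1f4, counted back from the start, and CCAAT lies at -55 to -51 in both. The stretches of H1f0 and H1f10 hold none of these motifs. Over the full 250 bases before the start, searched on both strands, H1f0 and H1f10 each hold GGTCCG, the core of the site that the H4 gene regulator HINFP binds, at -183 to -178 and at -196 to -191. H3f3b holds ATTTGCAT, the octamer of H2B promoters, on the minus strand at -70 to -63. A promoter was matched by symbol for 16 of the 25 histone genes, and none was matched for the 9 others, the loci named H3c13, H4c14 and H3c1 among them. CCAAT was in 12 of the 16 (34% of all 33469 promoters), TATAAA in 5 (12.9%), ATTTGCAT in 4 (1.56%), AAACACA in 3 (6.08%) and GGTCCG in 3 (6.74%). Either TTTCGCGC or the related TTTGGCGC, letters that E2F factors bind, was in 2, H2bc12 and H2ac10 (0.636% of all promoters). All 5 core promoters in the table held CCAAT. These are matches of letters, and binding was not measured.

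Variant genes made up 77.0% of the TPM of the 25 genes, linker genes 21.3% and core genes 1.75%. The sum of the 4 linker genes was 568, 555 and 575 TPM in MMA+FA cells, 706, 720.1 and 735 in MMA cells, 617, 589 and 678 in FA cells, and 535, 576 and 536 in control cells. The MMA libraries were above all others, and the MMA+FA libraries overlapped the controls. The means were 566 ± 10.03 in MMA+FA cells, 720.5 ± 14.8 in MMA cells, 628 ± 45.3 in FA cells and 549 ± 23.7 in control cells (SD, n = 3 each). The sum of the 11 core genes was 46.6, 35.01 and 45.8 TPM in MMA+FA cells, 54.2, 50.03 and 60.8 in MMA cells, 63.1, 40.6 and 49.6 in FA cells, and 50.6, 61.99 and 48.4 in control cells, and the MMA+FA libraries were below all MMA and control libraries and overlapped the FA libraries. Without H4c14 the other 10 core genes summed to 38.0, 30.5 and 39.7 TPM in MMA+FA cells, 44.7, 44.1 and 53.8 in MMA cells, 51.4, 28.7 and 38.8 in FA cells, and 37.6, 41.8 and 28.1 in control cells, so that MMA+FA overlapped control while MMA stayed above MMA+FA and control. The sum of the 10 variant genes was 2273, 2270.3 and 2341 TPM in MMA+FA cells, 2383, 2371 and 2413 in MMA cells, 2144, 2243 and 2089 in FA cells, and 2025, 2079 and 2135 in control cells. Each MMA library was above each other library for this sum, and the control libraries were all below the MMA+FA libraries. After median-ratio scaling the variant sums of MMA+FA (2343 to 2423 TPM) and MMA (2371 to 2478 TPM) overlapped, both above control (1932 to 2021 TPM). No test was made of a sum. H1f0 made up 78.9% of the linker sum, and H3f3a with H3f3b 70.1% of the variant sum.

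**Figure D1:**
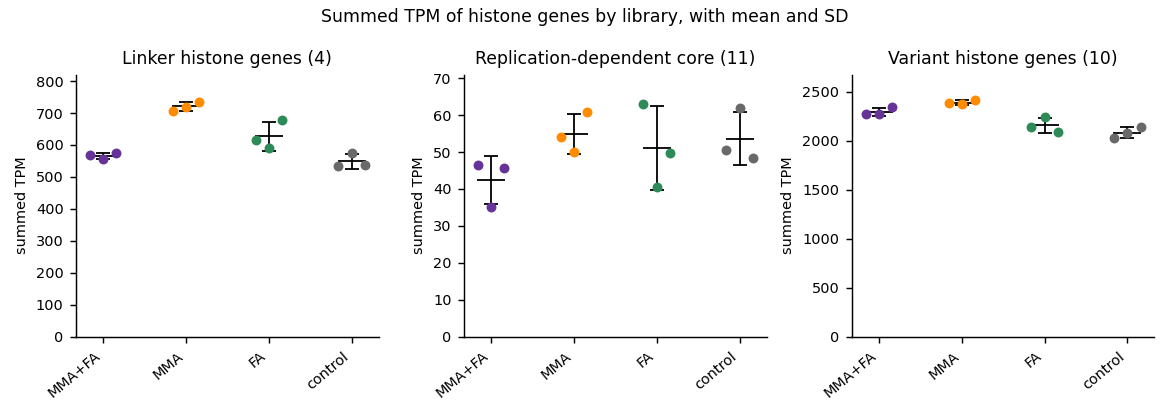
Summed TPM of the linker, replication-dependent core and variant histone genes (vertical axes, from 0) in each library, grouped as MMA+FA, MMA, FA and control; points are libraries, and bars show the mean and SD. The linker sum averages 720.5 TPM in MMA cells and 549 TPM in control cells, and the core sums of the MMA+FA libraries (35.01 to 46.6 TPM) lie below those of the control libraries (48.4 to 62.0 TPM), which overlap once H4c14 is left out (30.5 to 39.7 and 28.1 to 41.8 TPM).

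Differences were tested with limma on log2(TPM + 1) for the 12970 genes whose mean reached 0.5 TPM, and a gene was called where its adjusted p (Benjamini-Hochberg) was under 0.05. There were 6 contrasts. They were each of the 3 treatments against control, MMA+FA against each single treatment, and the interaction, which is the difference MMA+FA minus MMA less the difference FA minus control. The contrasts share libraries, so they are not independent. The typical gene was lower by TPM in the treated cells, with a median log2 difference over all genes of -0.11 for MMA+FA against control, -0.07 for MMA and -0.05 for FA. Median-ratio scaling, which divides each library by the median ratio of its genes to their geometric mean over libraries, brings that median near 0, and its value is given where it ends or adds a call. A call was recomputed in 21 other fits, among them 12 that each left out 1 library, and the fits that end it are named beside it.

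H1f0 encodes the replacement linker histone H1.0, known for its build-up in cells that have stopped dividing or are differentiating. It was the most abundant linker transcript, at 462, 448 and 471 TPM in MMA+FA cells, 562, 571 and 589 in MMA cells, 488, 463 and 519 in FA cells, and 399.7, 448 and 409 in control cells. All 3 MMA libraries stood above the other 9, and the FA libraries stood above the controls. The means were 460.3 ± 11.8 TPM in MMA+FA cells, 574 ± 13.8 in MMA cells, 490.1 ± 27.7 in FA cells and 419 ± 25.9 in control cells (mean ± SD, n = 3 each). H1f0 rose in MMA cells against control (log2 difference 0.46, SE 0.0504, adjusted p = 0.000982), and was lower in MMA+FA cells than in MMA cells (log2 difference -0.32, SE 0.0504, adjusted p = 0.00173). Both calls were kept in all 21 other fits. The interaction was negative (log2 difference -0.54, SE 0.0713, interval -0.70 to -0.39, adjusted p = 0.0107), and that call was kept in all other fits that give one. In FA cells H1f0 was higher than in control cells (log2 difference 0.23, SE 0.0504, adjusted p = 0.0196), a call lost without FA 1, FA 3, control 1 or control 3 (adjusted p of 0.0626 to 0.0866), and with only the groups compared (adjusted p = 0.0732). Against control, MMA+FA cells were higher by less (log2 difference 0.14, SE 0.0504, adjusted p = 0.0495). That call was lost without MMA+FA 1, MMA+FA 2, MMA+FA 3, MMA 1, MMA 2, MMA 3, FA 1, control 1 or control 3 (adjusted p of 0.0556 to 0.174), and with no filter, the replicate block, no trend or only the groups compared (adjusted p of 0.0581 to 0.0832). With median-ratio scaling it was 0.27 (adjusted p = 0.00326). MMA+FA and FA cells gave a difference of -0.09, interval -0.20 to 0.02.

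H1f10 encodes H1.10, a linker histone also called H1X, from a polyadenylated mRNA. Its level was 47.2, 44.9 and 47.2 TPM in MMA+FA cells, 78.2, 78.5 and 81.4 in MMA cells, 67.9, 60.8 and 90.1 in FA cells, and 70.9, 59.1 and 59.2 in control cells. All 3 MMA+FA libraries were below every other library, the MMA libraries were above the control libraries, and the FA libraries, with FA 3 the highest of all, overlapped both. The means were 46.4 ± 1.29 TPM in MMA+FA cells, 79.4 ± 1.76 in MMA cells, 72.9 ± 15.3 in FA cells and 63.1 ± 6.80 in control cells (mean ± SD, n = 3 each). H1f10 was lower in MMA+FA cells than in MMA cells (log2 difference -0.76, SE 0.113, adjusted p = 0.00121), and the interaction was negative (log2 difference -0.95, SE 0.160, interval -1.30 to -0.60, adjusted p = 0.0155). These 2 calls were kept in all other fits that give them. Against FA cells, MMA+FA cells were lower as well (log2 difference -0.62, SE 0.113, adjusted p = 0.0122), a call lost with only the groups compared (adjusted p = 0.107). Against control cells H1f10 fell in MMA+FA cells (log2 difference -0.43, SE 0.113, adjusted p = 0.0112), a call lost without control 1 (adjusted p = 0.0512), and with median-ratio scaling (adjusted p = 0.0622), where it was -0.30. Neither treatment alone passed the test against control. For MMA the difference was 0.33, adjusted p = 0.0594, or 0.41 with an adjusted p of 0.0314 with median-ratio scaling, and for FA it was 0.19, adjusted p = 0.278.

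The cluster linker gene H1f2 encodes H1.2, and stood at 57.04, 60.5 and 54.1 TPM in MMA+FA cells, 62.96, 68.0 and 62.96 in MMA cells, 57.4, 62.4 and 66.6 in FA cells, and 61.6, 65.8 and 65.4 in control cells. The MMA+FA libraries were below all MMA and control libraries and overlapped the FA libraries. H1f2 was lower in MMA+FA cells than in control cells (log2 difference -0.17, SE 0.0604, adjusted p = 0.0480). The call was lost without MMA+FA 1, MMA+FA 3, MMA 1, MMA 2, MMA 3, FA 2, control 1, control 2 or control 3 (adjusted p of 0.0502 to 0.161), and with no filter, median-ratio scaling, TPM without mitochondrially encoded genes or no trend (adjusted p of 0.0679 to 0.685). With median-ratio scaling the difference was -0.04. H1f4, which encodes H1.4, was near the low end of the table at 1.82, 1.99 and 2.48 TPM in MMA+FA cells, 2.90, 2.39 and 2.11 in MMA cells, 3.10, 2.67 and 2.31 in FA cells, and 2.46, 3.09 and 2.69 in control cells. All pairs of groups overlapped and no contrast was called, the largest difference from control being -0.28, adjusted p = 0.0891 in MMA+FA cells.

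**Figure D2:**
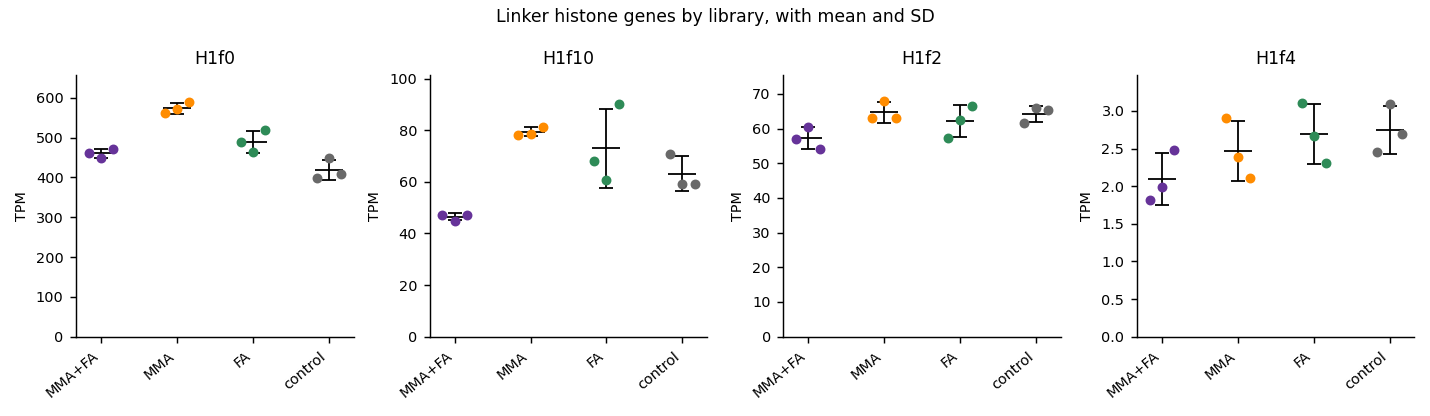
TPM of the 4 linker histone genes (vertical axes, from 0) by library in MMA+FA, MMA, FA and control cells; points are libraries, and bars show the mean and SD. H1f0 is highest in the MMA libraries (562 to 589 TPM), and H1f10 is lowest in the MMA+FA libraries (44.9 to 47.2 TPM).

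Among the variant genes, H3f3b and H3f3a both encode the replacement histone H3.3, which is placed into chromatin outside replication and marks active genes. H3f3b was the most abundant histone transcript, at 779, 766 and 800.3 TPM in MMA+FA cells, 917, 922 and 898 in MMA cells, 773, 798 and 782 in FA cells, and 697, 734 and 752 in control cells. The MMA libraries were above all others, the control libraries were below all others, and MMA+FA and FA overlapped. The means were 782 ± 17.2 TPM in MMA+FA cells, 912 ± 12.6 in MMA cells, 784 ± 12.7 in FA cells and 728 ± 27.7 in control cells (mean ± SD, n = 3 each). H3f3b rose in MMA cells against control (log2 difference 0.33, SE 0.0350, adjusted p = 0.000982) and was lower in MMA+FA cells than in MMA cells (log2 difference -0.22, SE 0.0350, adjusted p = 0.00167). The interaction was negative (log2 difference -0.33, SE 0.0494, interval -0.44 to -0.22, adjusted p = 0.0127), and these 3 calls were kept in all other fits that give them. MMA+FA cells were higher than control cells by a smaller difference (log2 difference 0.10, SE 0.0350, adjusted p = 0.0351), a call lost without MMA+FA 1, MMA+FA 3, MMA 1, control 1 or control 2 (adjusted p of 0.0509 to 0.146), and with no trend or only the groups compared (adjusted p of 0.0623 to 0.0771). In FA cells the difference from control was 0.11, adjusted p = 0.0651, or 0.16 with an adjusted p of 0.0185 after median-ratio scaling.

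H3f3a had a different order of groups, at 801, 806 and 859 TPM in MMA+FA cells, 774, 777 and 812 in MMA cells, 750.3, 771 and 689 in FA cells, and 693, 684 and 735 in control cells. The MMA+FA and MMA libraries overlapped each other and were above all FA and control libraries. It rose in MMA+FA cells against control in every fit (log2 difference 0.22, SE 0.0478, adjusted p = 0.00378). In MMA cells it also rose against control (log2 difference 0.16, SE 0.0478, adjusted p = 0.0355), a call lost without MMA 1, MMA 2, MMA 3, control 1 or control 2 (adjusted p of 0.0599 to 0.125), and with no filter, the replicate block or no trend (adjusted p of 0.0555 to 0.0650). Against FA cells MMA+FA cells differed by 0.16, adjusted p = 0.0569, or by 0.24 with an adjusted p of 0.0252 after median-ratio scaling. The interaction of H3f3a was -0.0032 (interval -0.15 to 0.14) and was not called. A difference between H3f3a and H3f3b in their interaction was not tested.

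A further 3 loci carry H3f3 symbols, and reads from near-identical copies could be shared among them and H3f3a, so their values are uncertain. H3f3a-ps3, a locus with a pseudogene symbol that the table lists as protein-coding, had 70.2, 85.2 and 74.8 TPM in MMA+FA cells, 85.6, 96.5 and 82.5 in MMA cells, 69.05, 75.9 and 67.1 in FA cells, and 69.05, 66.02 and 72.7 in control cells. Its MMA libraries were above all FA and control libraries, and it rose in MMA cells against control in every fit (log2 difference 0.34, SE 0.0777, adjusted p = 0.0121). In MMA+FA cells the difference from control was 0.14, adjusted p = 0.172, or 0.27 with an adjusted p of 0.0305 after median-ratio scaling. H3f3c had 19.5, 21.8 and 21.2 TPM in MMA+FA cells, 19.4, 17.8 and 15.4 in MMA cells, 17.4, 16.2 and 12.2 in FA cells, and 15.4, 14.99 and 16.7 in control cells, and each MMA+FA library was above each other library. It rose in MMA+FA cells against control (log2 difference 0.39, SE 0.114, adjusted p = 0.0187), a call lost without MMA+FA 2, MMA+FA 3, control 1 or control 2 (adjusted p of 0.0521 to 0.0618). Against FA cells it was higher too (log2 difference 0.44, SE 0.114, adjusted p = 0.0344). That call was lost without MMA+FA 2, MMA+FA 3, MMA 2, FA 3 or control 1 (adjusted p of 0.0504 to 0.109), and with no filter or only the groups compared (adjusted p of 0.0731 to 0.131). H3f3a-ps9 had 28.1, 27.4 and 28.1 TPM in MMA+FA cells, 25.3, 26.2 and 26.4 in MMA cells, 23.6, 28.6 and 18.9 in FA cells, and 26.2, 24.5 and 24.7 in control cells, and no contrast was called. Its MMA+FA libraries were above the MMA and control libraries, while its FA libraries spread over all other groups.

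The H2A variants had different orders of groups. H2az2 encodes H2A.Z.2, a variant found at promoters and enhancers, and had 63.7, 59.98 and 68.6 TPM in MMA+FA cells, 78.97, 78.3 and 82.9 in MMA cells, 58.97, 69.5 and 56.2 in FA cells, and 58.3, 63.0 and 63.9 in control cells. The MMA libraries were above all others, and the MMA+FA, FA and control libraries overlapped. H2az2 rose in MMA cells against control in every fit (log2 difference 0.37, SE 0.0737, adjusted p = 0.00744). It was lower in MMA+FA cells than in MMA cells (log2 difference -0.32, SE 0.0737, adjusted p = 0.0151), a call lost without MMA+FA 2 (adjusted p = 0.0606). Its interaction was -0.31, adjusted p = 0.152, not past the threshold.

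H2aj encodes H2A.J, a variant known from human fibroblasts to accumulate in senescence, and had 345, 341 and 325 TPM in MMA+FA cells, 306, 284 and 309 in MMA cells, 262, 309 and 259.9 in FA cells, and 291, 315 and 301 in control cells. Each MMA+FA library was above each other library. On the TPM scale as deposited, only the difference from FA cells was called (log2 difference 0.29, SE 0.0628, adjusted p = 0.0206), and it was lost without MMA+FA 2, FA 1 or FA 3 (adjusted p of 0.0641 to 0.0758), and with only the groups compared (adjusted p = 0.125). Against control the difference was 0.16, adjusted p = 0.0698, and after median-ratio scaling it was called (0.28, adjusted p = 0.00911). The interaction was 0.30, adjusted p = 0.106.

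The macroH2A variants carry a large extra domain and are known for their part in stable gene silencing. Macroh2a1 had 80.8, 80.6 and 81.1 TPM in MMA+FA cells, 81.6, 81.1 and 90.3 in MMA cells, 92.3, 89.1 and 95.2 in FA cells, and 94.4, 88.6 and 86.1 in control cells. The MMA+FA libraries lay close together, below every other library but barely below MMA 2 (81.06 TPM in MMA+FA 3 against 81.07). The difference from MMA cells was -0.06, adjusted p = 0.488, and was not called. Macroh2a1 was lower in MMA+FA cells than in control cells (log2 difference -0.15, SE 0.0496, adjusted p = 0.0350), a call lost without MMA+FA 1, MMA+FA 2, MMA+FA 3, control 1 or control 2 (adjusted p of 0.0643 to 0.137), and with median-ratio scaling or no trend (adjusted p of 0.0550 to 0.817). After median-ratio scaling that difference was -0.02 (adjusted p = 0.817). Against FA cells it was lower too (log2 difference -0.19, SE 0.0496, adjusted p = 0.0370), a call lost without MMA+FA 1, MMA+FA 2, MMA+FA 3, FA 1, FA 3 or control 2 (adjusted p of 0.0549 to 0.1002), and with no filter, median-ratio scaling, the replicate block, no trend or only the groups compared (adjusted p of 0.0533 to 0.245). After scaling it was -0.11 (adjusted p = 0.245). Macroh2a2 had 52.7, 49.8 and 50.2 TPM in MMA+FA cells, 56.5, 55.05 and 55.2 in MMA cells, 60.05, 53.3 and 63.03 in FA cells, and 45.2, 53.4 and 47.3 in control cells, and its FA and control libraries touched at 1 value. It was higher in FA cells than in control cells (log2 difference 0.27, SE 0.0674, adjusted p = 0.0289), a call lost without FA 1, FA 3, control 1 or control 3 (adjusted p of 0.0938 to 0.111), and with no filter or only the groups compared (adjusted p of 0.0529 to 0.0948). In MMA cells the difference from control was 0.19, adjusted p = 0.0642, and in MMA+FA cells it was 0.07, adjusted p = 0.458. After median-ratio scaling both passed, at 0.27 (adjusted p = 0.0210) in MMA cells and 0.19 (adjusted p = 0.0490) in MMA+FA cells. Its interaction was -0.39, adjusted p = 0.0554, which passed the threshold with median-ratio scaling (-0.40, adjusted p = 0.0495).

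H2ax encodes H2A.X, whose phosphorylation marks DNA breaks. Its transcript had 32.3, 31.99 and 33.5 TPM in MMA+FA cells, 38.7, 33.2 and 41.6 in MMA cells, 38.1, 32.8 and 44.96 in FA cells, and 34.8, 35.1 and 36.03 in control cells. The MMA+FA libraries were below all control libraries, and no contrast was called, with a difference from control of -0.11, adjusted p = 0.396 in MMA+FA cells, or 0.01 after median-ratio scaling. Phosphorylation is not measured by RNA.

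**Figure D3:**
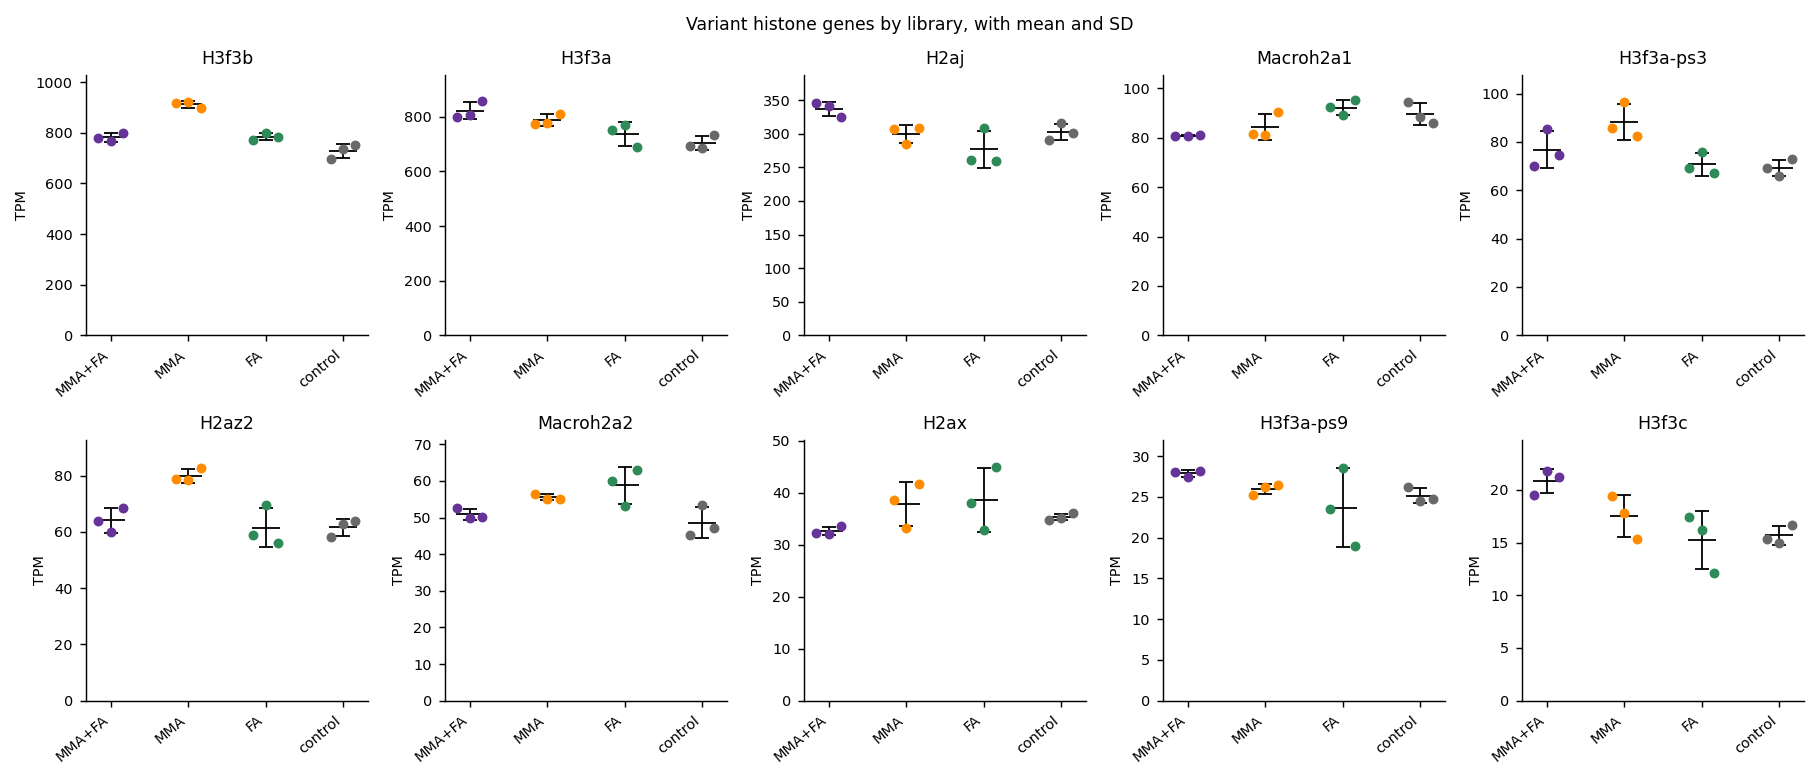
TPM of the 10 variant histone genes (vertical axes, from 0) by library in MMA+FA, MMA, FA and control cells; points are libraries, and bars show the mean and SD. H3f3b and H2az2 are highest in the MMA libraries (898 to 922 and 78.3 to 82.9 TPM), and H2aj is highest in the MMA+FA libraries (325 to 345 TPM).

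The core genes were low, and several share a symbol or a near-identical sequence, so reads could be shared among loci and the split between them is uncertain. H4c14 encodes histone H4, and the locus ENSRNOG00000067648 held nearly all of its signal, since the other 2 loci with this symbol were at means of 0.121 and 0.0725 TPM. It had 8.57, 4.56 and 6.12 TPM in MMA+FA cells, 9.44, 5.95 and 6.98 in MMA cells, 11.8, 11.9 and 10.9 in FA cells, and 12.96, 20.2 and 20.3 in control cells. Every control library was above every treated library, and the FA libraries were above the MMA+FA and MMA libraries, which overlapped. The means were 6.42 ± 2.02 TPM in MMA+FA cells, 7.46 ± 1.79 in MMA cells, 11.5 ± 0.557 in FA cells and 17.8 ± 4.21 in control cells (mean ± SD, n = 3 each). H4c14 fell in MMA+FA cells against control (log2 difference -1.35, SE 0.207, adjusted p = 0.000577) and in MMA cells against control (log2 difference -1.15, SE 0.207, adjusted p = 0.00489), and both calls were kept in all 21 other fits. In FA cells the difference was -0.56, adjusted p = 0.0943. MMA+FA cells were lower than FA cells (log2 difference -0.79, SE 0.207, adjusted p = 0.0356), a call lost without MMA+FA 2, MMA+FA 3, FA 1, FA 2 or FA 3 (adjusted p of 0.0549 to 0.126), and with no filter, median-ratio scaling, the replicate block, no trend or only the groups compared (adjusted p of 0.0502 to 0.113). After median-ratio scaling it was -0.72.

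H3c1 encodes histone H3. The locus ENSRNOG00000068614 had 3.73, 3.38 and 5.10 TPM in MMA+FA cells, 3.66, 4.51 and 6.32 in MMA cells, 6.53, 3.45 and 4.81 in FA cells, and 3.23, 2.29 and 0.730 in control cells. The control libraries were below all others, with control 3 the lowest. It was higher than in control cells in MMA cells (log2 difference 0.99, SE 0.295, adjusted p = 0.0367) and in FA cells (log2 difference 1.01, SE 0.295, adjusted p = 0.0471). The call for MMA was lost without MMA 2, MMA 3, control 2 or control 3 (adjusted p of 0.0569 to 0.138), and with no filter, the replicate block, no trend or only the groups compared (adjusted p of 0.0501 to 0.0818). The call for FA was lost without MMA+FA 1, MMA+FA 2, MMA+FA 3, MMA 1, MMA 2, FA 1, FA 3, control 2 or control 3 (adjusted p of 0.0536 to 0.164), and with a pseudocount of 0.1, no filter, the replicate block, no trend or only the groups compared (adjusted p of 0.0525 to 0.113). In MMA+FA cells the difference from control was 0.80, adjusted p = 0.0508, or 0.89 with an adjusted p of 0.0420 after median-ratio scaling. H2ac10, an H2A gene, had 0.550, 1.22 and 1.88 TPM in MMA+FA cells, 0.960, 2.44 and 0.990 in MMA cells, 1.01, 1.01 and 1.70 in FA cells, and 2.40, 3.52 and 2.03 in control cells. The control libraries were above all MMA+FA and FA libraries. It was lower in MMA+FA cells than in control cells (log2 difference -0.74, SE 0.261, adjusted p = 0.0408), a call lost without MMA+FA 1, MMA+FA 2, FA 1, control 1 or control 2 (adjusted p of 0.0508 to 0.157), and with no filter, median-ratio scaling or no trend (adjusted p of 0.0504 to 0.0837). After median-ratio scaling it was -0.66.

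Of the 25 genes, 4 were loci named H3c13, which encode H3, and none was called in any contrast. The highest, ENSRNOG00000065054, had 16.4, 14.6 and 17.2 TPM in MMA+FA cells, 18.7, 18.9 and 22.8 in MMA cells, 21.3, 12.7 and 15.7 in FA cells, and 13.2, 19.2 and 12.5 in control cells. Its MMA libraries were above its MMA+FA libraries, and the other pairs of groups overlapped. ENSRNOG00000063016 had 3.31, 0.840 and 2.85 TPM in MMA+FA cells, 7.02, 4.20 and 5.06 in MMA cells, 2.21, 1.08 and 3.28 in FA cells, and 5.52, 3.89 and 1.27 in control cells, and its MMA libraries were above its MMA+FA and FA libraries. ENSRNOG00000065886 had 3.07, 1.64 and 2.65 TPM in MMA+FA cells, 3.39, 3.11 and 4.56 in MMA cells, 7.29, 2.94 and 3.03 in FA cells, and 2.97, 2.35 and 2.46 in control cells, and its MMA libraries were above its MMA+FA and control libraries. The H2A gene H2ac25 had 4.63, 3.07 and 4.26 TPM in MMA+FA cells, 3.93, 4.59 and 5.20 in MMA cells, 4.26, 3.81 and 6.06 in FA cells, and 5.22, 4.51 and 3.43 in control cells, with overlap in every pair of groups. The remaining 4 core loci were not called in any contrast: H2bc12 at 0.670 to 3.74 TPM, ENSRNOG00000066835 (H3c13) at 1.35 to 2.76 TPM, H2ac4 at 0.490 to 2.02 TPM and H2bc18 at 0.340 to 0.950 TPM.

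**Figure D4:**
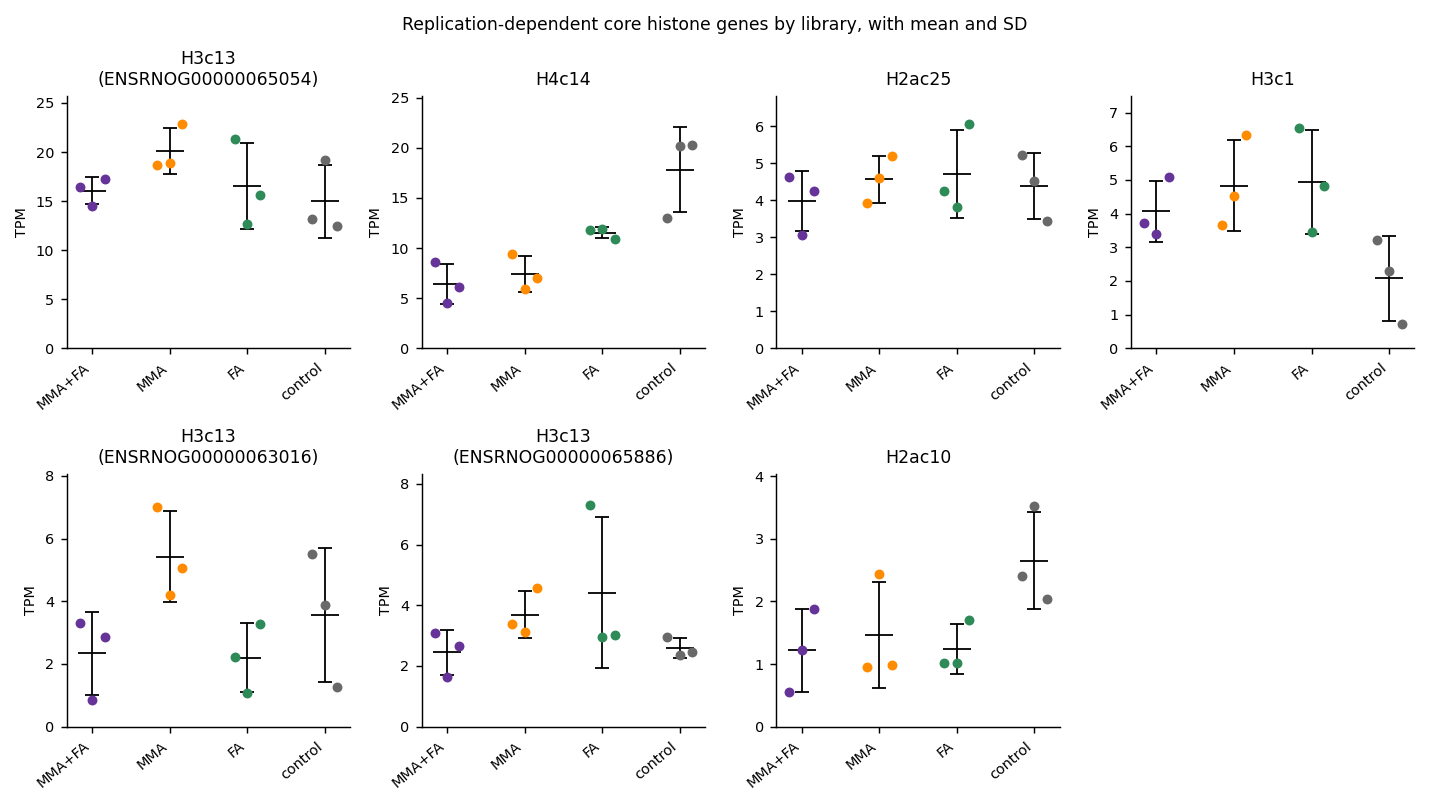
TPM of the 7 core histone genes shown by library in the text (vertical axes, from 0) in MMA+FA, MMA, FA and control cells; points are libraries, and bars show the mean and SD. H4c14 is highest in the control libraries (12.96 to 20.3 TPM), and H3c1 is lowest there (0.730 to 3.23 TPM).

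Counted over the 25 genes, MMA+FA against control gave 4 higher and 5 lower calls, beside 37.4% of all genes tested called (6.41% higher, 31% lower). After median-ratio scaling 8 were higher and 1 was lower, beside 15.1% and 12.8% of all genes. By class, 1 of 4 linker genes was higher and 2 were lower, 2 of 11 core genes were lower, and 3 of 10 variant genes were higher and 1 lower. The median log2 difference of the 25 was 0.03, against -0.11 for all genes. Leaving out 1 library took the 9 calls to 4 without MMA+FA 1, 5 without MMA+FA 2 or MMA+FA 3, 3 without control 1 and 4 without control 2.

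MMA against control gave 6 higher calls and 1 lower, beside 19.1% of all genes called (3.58% higher, 15.5% lower). The scaled split was 8 and 1, beside 7.76% and 6.23%, and the median of the 25 was 0.15 against -0.07 for all genes. FA against control gave 3 higher calls and 0 lower, beside 11.3% of all genes (3.35% higher, 7.92% lower), and 4 higher calls after median-ratio scaling, beside 5.45% of all genes higher and 3.41% lower. Without adjustment, 6 of the 25 and 29.9% of all genes had a p under 0.05. The 3 calls became 0 without FA 1, FA 3 or control 3, 1 without control 1 and 5 without FA 2. The median of the 25 was 0.03, against -0.05 for all genes.

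MMA+FA against MMA gave 0 higher calls and 4 lower (H1f0, H1f10, H3f3b and H2az2), beside 12.7% of all genes (3.89% higher, 8.84% lower), and 0 and 4 with median-ratio scaling, where the background was 6.02% and 5.73%. No core gene was called there in limma, with 1 of 11 at an unadjusted p under 0.05, beside 27.3% of all genes. MMA+FA against FA gave 2 higher and 3 lower calls, beside 9.51% of all genes (1.45% higher, 8.06% lower), and 3 higher and 1 lower after median-ratio scaling, beside 3.21% and 2.17%. The 5 calls became 3 without FA 1, 8 without FA 2, 1 without FA 3 or MMA+FA 2, and 2 without MMA+FA 3. The interaction gave 0 higher and 3 lower calls, beside 2.07% of all genes (0.833% higher, 1.23% lower). After median-ratio scaling 4 were lower, beside 0.941% of all genes higher and 1.49% lower. The 3 calls became 5 without FA 2, and the median interaction of the 25 was -0.22 against 0.01 for all genes. In the F test across the groups 12 of the 25 were called, beside 38.6% of all genes.

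**Figure D5:**
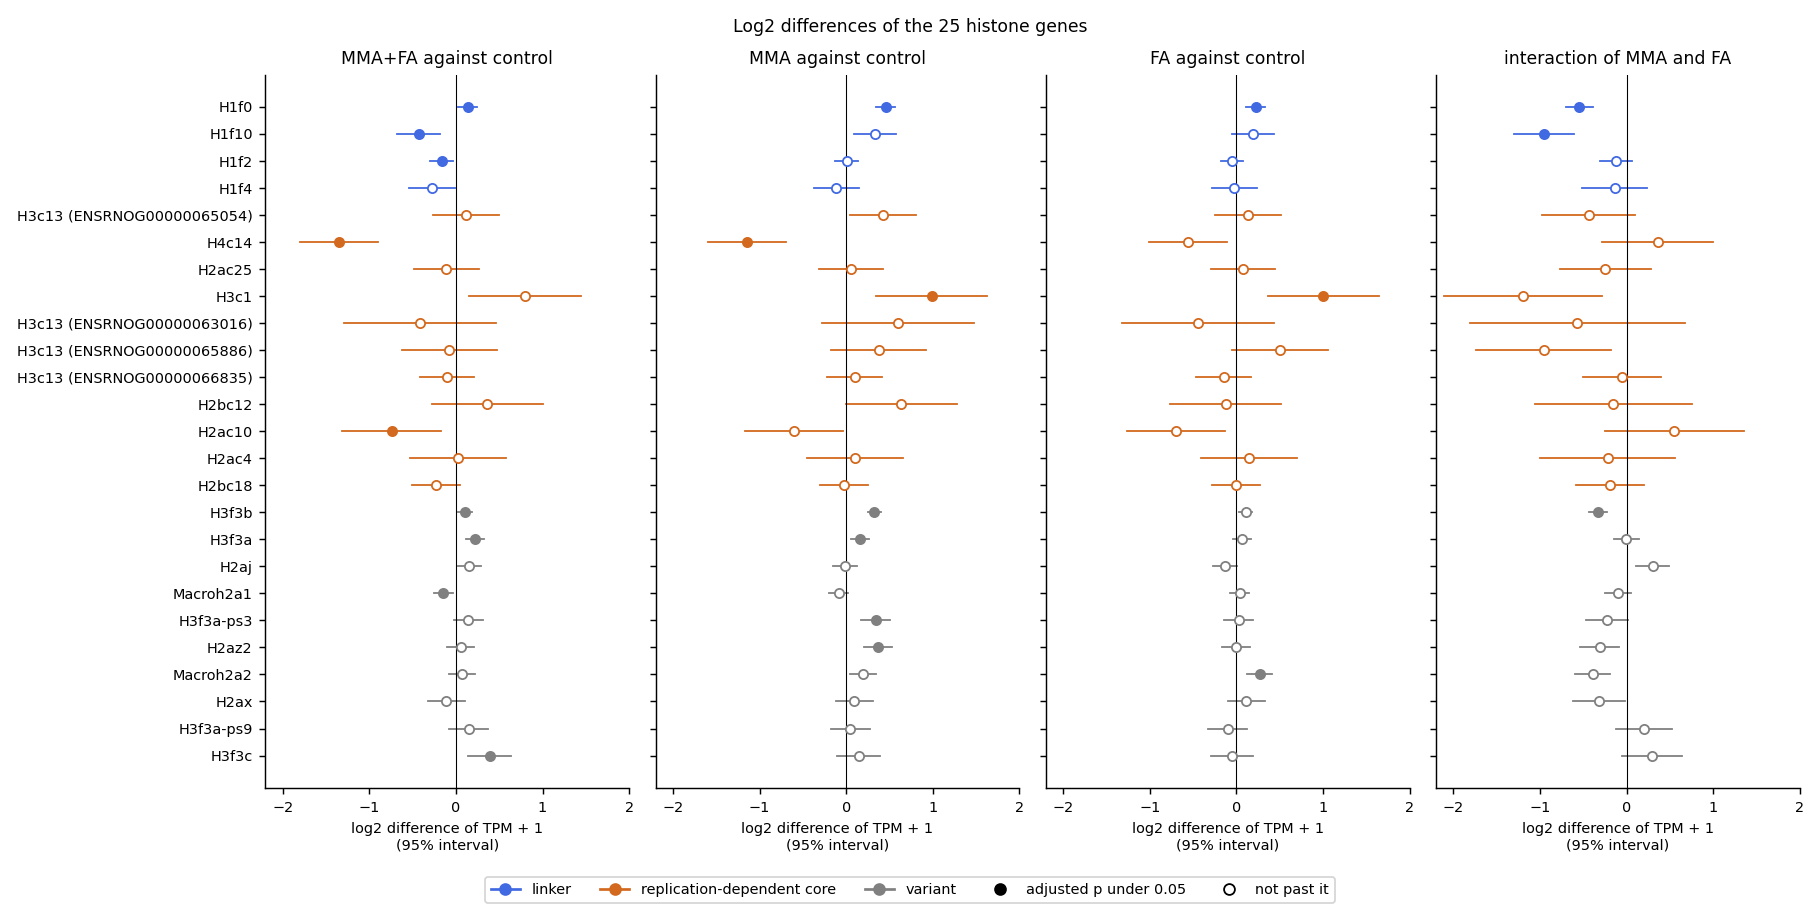
Log2 differences of TPM + 1 for the 25 histone genes (rows, coloured by class) with limma's 95% intervals, for MMA+FA, MMA and FA against control and for the interaction; filled points have an adjusted p under 0.05 and open points do not. H4c14 lies far left in MMA+FA and MMA (-1.35 and -1.15), and the filled points of the interaction are H1f0, H1f10 and H3f3b.

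Genes that act on histone mRNA were read from a list of 20 symbols for its transcription and end processing, of which 17 were tested. Zfp473 was below 0.5 TPM, and the symbols Symplk and Ars2 were not found. Ars2 is another name for Srrt, which was tested. In MMA+FA cells 0 were higher and 11 lower than in control cells (1 and 7 with median-ratio scaling), beside 6.41% of all genes higher and 31% lower (15.1% and 12.8% after that scaling). The median of the list was -0.23, against -0.11 for all genes. Casp8ap2, whose protein FLASH is needed for histone pre-mRNA cleavage, had 4.36 ± 0.560 TPM in MMA+FA cells and 7.17 ± 0.510 TPM in control cells (SD, n = 3; log2 difference -0.61, adjusted p = 0.000870). Slbp, the stem-loop binding protein of histone mRNA, was lower in MMA+FA cells at 64.7 ± 2.77 TPM than in MMA cells at 76.6 ± 4.87 TPM (log2 difference -0.24, adjusted p = 0.00852). In the other contrasts 3 were lower for MMA against control (0 after median-ratio scaling, beside 15.5% of all genes lower as deposited), 3 for FA against control (1 after scaling; 7.92% of all genes), 4 for MMA+FA against MMA (3; 8.84%) and 3 for MMA+FA against FA (2; 8.06%). After scaling, the shares of all genes lower were 6.23%, 3.41%, 5.73% and 2.17% in that order. None of the list was higher in these contrasts. In the interaction 0 were called in limma, beside 2.07% of all genes. After median-ratio scaling 0 were called as well, beside 0.941% of all genes higher and 1.49% lower.

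Of 27 tested genes in a list for histone chaperones and deposition (29 listed, Cenpa among them), 6 were higher and 4 lower in MMA cells than in control cells. The shares of all genes were 3.58% and 15.5%. With median-ratio scaling 8 were higher and 3 lower, beside 7.76% and 6.23% of all genes. Nasp, which holds soluble histones, rose (log2 difference 0.27, adjusted p = 0.0101). So did Cenpa, which encodes the centromeric histone variant itself and not a chaperone (log2 difference 0.33, adjusted p = 0.0146). The call of Cenpa was lost without control 1. In MMA+FA cells against MMA cells 1 was higher and 8 lower, beside 3.89% and 8.84% of all genes (2 and 6 after scaling, beside 6.02% and 5.73%). Asf1b, a chaperone of H3 and H4, had 38.3 ± 3.91 TPM in MMA+FA cells and 55.5 ± 3.74 TPM in MMA cells (log2 difference -0.53, adjusted p = 0.00120), and Hjurp, which places the centromeric variant, was lower as well (log2 difference -0.41, adjusted p = 0.00359). Against control, MMA+FA cells had 2 higher and 10 lower, beside 6.41% and 31% of all genes (5 and 2 with median-ratio scaling, beside 15.1% and 12.8%). Chaf1b, a subunit of the replication-coupled assembly factor, was among the higher (log2 difference 0.42, adjusted p = 0.00602). FA cells had 1 higher and 1 lower against control, beside 3.35% and 7.92% of all genes (1 and 0 after scaling, beside 5.45% and 3.41%). MMA+FA cells had 1 lower against FA cells, beside 8.06% of all genes (0 after scaling, beside 2.17%). In the interaction 1 was lower, Asf1b (log2 difference -0.58, adjusted p = 0.0232), beside 1.23% of all genes lower. That call was lost without MMA+FA 2, MMA 1, MMA 3, FA 1, control 1 or control 3.

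Replication-dependent histone genes are expressed in S phase. Of 19 tested S phase genes (20 listed), 7 were higher and 2 lower in MMA+FA cells than in control cells, beside 6.41% and 31% of all genes. After median-ratio scaling 11 were higher and 1 lower, beside 15.1% and 12.8%. In MMA cells 7 rose and 0 fell against control cells, beside 3.58% and 15.5% (11 and 0 after scaling, beside 7.76% and 6.23%). Tk1, thymidine kinase, had 49.5 ± 5.34 TPM in MMA cells and 28.02 ± 3.41 TPM in control cells (log2 difference 0.80, adjusted p = 0.00202). Rrm2, a subunit of ribonucleotide reductase, was lower in MMA+FA cells than in MMA cells (log2 difference -0.55, adjusted p = 0.000626). It was 1 of 3 lower there with 0 higher, beside 8.84% of all genes lower and 3.89% higher. FA cells had 1 higher than control, Tk1 (log2 difference 0.59, adjusted p = 0.0122), and 0 lower, beside 3.35% and 7.92% of all genes. The call of Tk1 was lost without FA 1 or control 3. In MMA+FA against FA cells 0 were called in limma, beside 9.51% of all genes. The interaction had 2 lower, Tk1 (log2 difference -0.76, adjusted p = 0.0332) and Rrm2 (log2 difference -0.45, adjusted p = 0.0462), beside 1.23% of all genes lower. Their calls were lost in 9 and 10 of the 12 fits with 1 library left out. They were kept for both without MMA+FA 3 or FA 2, and for Tk1 also without control 2. Over the same contrasts 2 of 11 core histone genes were lower in MMA+FA cells, beside 31% of all genes lower. After scaling 1 was higher and 1 lower, beside 15.1% and 12.8% of all genes. In MMA cells 1 core gene was higher and 1 lower, beside 3.58% and 15.5% of all genes. These counts were 1 and 1 after scaling, beside 7.76% and 6.23%.

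Several measures moved with the groups, and their part in the histone values was not tested. RNAs without a long polyA tail (Rpph1 and Rn7sl1) summed to 44.3 to 57.2 TPM in MMA+FA cells, 35.7 to 44.5 in MMA cells, 39.1 to 48.7 in FA cells and 41.1 to 46.6 in control cells. Of these, Rpph1 was higher in MMA+FA cells than in control cells (log2 difference 0.50, adjusted p = 0.0366), a call lost without MMA+FA 1, MMA+FA 2, control 1 or control 3. Small RNA biotypes (snRNA, snoRNA, scaRNA, misc_RNA and ribozyme) together summed to 181 to 296, 222 to 449, 297 to 460.3 and 303 to 319 TPM over the same groups. Mitochondrially encoded genes took 10.3 to 11.2% of TPM in MMA+FA cells, 10.4 to 11.6% in MMA cells, 8.87 to 10.6% in FA cells and 9.45 to 9.98% in control cells. The 12 cardiomyocyte markers summed to 84.3 to 104 TPM in MMA+FA cells, 38.4 to 40.7 in MMA cells, 61.6 to 64.2 in FA cells and 32.2 to 38.2 in control cells, 4 of the 12 being at 0.5 TPM or more. Tnnt2 made up most of that sum, with a mean of 73.6 TPM in MMA+FA cells, 21.4 in MMA cells, 44.5 in FA cells and 16.1 in control cells, and was the only one of these 4 called in any contrast. The median difference of the 4 in MMA+FA cells against control was -0.03. The 6 skeletal myoblast markers (4 at that level) summed to 58.2 to 69.1, 79.3 to 83.7, 78.0 to 94.0 and 90.4 to 99.9 TPM in the same order, and their members moved in opposite directions in MMA+FA cells against control. Myod1 was lower (log2 difference -1.17, adjusted p = 1.7e-05) while Acta1 was higher (a mean of 9.25 TPM against 3.77 TPM, adjusted p = 4.74e-05). Des was higher as well (log2 difference 0.38, adjusted p = 0.0331), a call lost without 5 of the 12 libraries in turn: MMA+FA 1, MMA+FA 2, MMA+FA 3, control 2 and control 3. The 6 fibroblast markers (4 at that level) summed to 7963 to 9429, 8070.4 to 9086, 9213 to 10726 and 7760.5 to 8506 TPM. Endothelial markers stayed at 0.240 to 0.310 TPM in every library with 0 of 5 at that level, and leukocyte markers at 1.95 to 3.68 TPM with 1 of 6. Epithelial markers, with 1 of 4 at that level, Krt8, summed to 26.8 to 33.9 TPM in MMA+FA cells, 24.6 to 26.1 in MMA cells, 30.02 to 33.01 in FA cells and 19.8 to 21.99 in control cells. Krt8 was higher than in control cells in MMA+FA cells (log2 difference 0.49, adjusted p = 0.000581) and FA cells (0.55, adjusted p = 0.00373). In MMA cells it was higher by 0.24 (adjusted p = 0.0421), a call lost in 8 of the fits with 1 library left out.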

How the data were processed

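Expression was measured in 12 libraries of polyA RNA from rat H9c2 cells. Per the labels' protocols, TRIzol was used for extraction and the kit was Illumina's Stranded mRNA Prep. Reads were handled with fastp and HISAT2 on the build mRatBN7.2, per the submitters' processing notes. Versions, annotation release and strand setting are not stated there. What the authors deposited is 1 table of TPM by gene, whose title alone mentions RSEM. Read counts are unknown, so no counting error is given.

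From these values, limma 3.58.1 (R 4.3.3) fitted log2(TPM + 1) with a mean for each group, all 12 libraries and a trend of variance on level. The 12970 genes whose mean reached 0.5 TPM entered (8 residual degrees of freedom, prior 4.112). P-values were Benjamini-Hochberg adjusted over all genes tested. A permutation of 3 against 3 libraries cannot go below a p of 0.1, so single genes were judged by limma. The histone genes and the gene lists were chosen with earlier results of these data known. All histone genes past the level are accounted for; values by library are given for linker genes, for variant genes of at least 5 TPM, and for core genes among the 6 highest or called. In each list, called genes with the smallest adjusted p were eligible to be named, and some of them are. The lists cover histone mRNA processing, chaperones, S phase, RNAs without a long polyA tail and markers of cardiomyocytes, skeletal myoblasts, fibroblasts, endothelium, leukocytes and epithelium.

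Alternatives were pseudocounts of 0.1 and 0.5, a filter of 1 TPM, no filter, median-ratio scaling, TPM without mitochondrially encoded genes, a block for the replicate number, no trend, only the groups compared, and leaving out each library. The code was tested on simulated data. Figures were drawn in matplotlib 3.10.9 (Python 3.11.15).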

Additional observations from a re-analysis of the deposited data

Results flagged for a closer look

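Of the 25 histone genes, 3 were called in the interaction, so that the effect of FA differed between cells with MMA and cells without it. For H1f0 the interaction was -0.54 on the log2(TPM + 1) scale. Its mean was 460.3 TPM in MMA+FA cells against 574 TPM in MMA cells, and 490.05 TPM in FA cells against 419 TPM in control cells. For H1f10 the interaction was -0.95, with 46.4 TPM in MMA+FA cells against 79.4 TPM in MMA cells, and 72.9 TPM in FA cells against 63.1 TPM in control cells. For H3f3b the interaction was -0.33, with 782 TPM in MMA+FA cells against 912 TPM in MMA cells, and 784 TPM in FA cells against 728 TPM in control cells. The adjusted p in limma was 0.0107 for H1f0, 0.0155 for H1f10 and 0.0127 for H3f3b, beside 2.07% of all genes called in the interaction. All 3 MMA+FA libraries were below all 3 MMA libraries for each of the 3 genes. This is not particular to them, since these 2 groups also did not overlap for other histone genes, such as H2az2 (lower) and H2aj (higher). How often this holds over all genes tested was not counted. The interaction also contains the difference between MMA+FA and MMA cells.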

How the results depend on the processing

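Each of 31 calls of a histone gene was recomputed in up to 21 other fits. None was reversed, 13 passed the threshold in all of these fits, and 14 in each of the fits with 1 library left out. TPM keep no depth, so low genes, most of the core class, carry a counting error that cannot be given. Without the mean-variance trend, MMA+FA against control gave 4 histone calls in place of 9. For FA against control, genes called numbered 928 with no filter and 460 with only the groups compared, in place of 1462, and histone calls 1 and 0 in place of 3. For MMA+FA against FA, genes called numbered 699 with no filter, 697 with median-ratio scaling and 18 with only the groups compared, in place of 1233. Histone calls there were 2 with no filter, 3 with the replicate block, 3 with no trend and 0 with only the groups compared, in place of 5. With median-ratio scaling the linker sum was 589.6 TPM in MMA+FA cells and 523 TPM in control cells, and the variant sum 2390.5 and 1982 TPM, with 2410.4 TPM in MMA cells, whose libraries then overlapped those of MMA+FA. Without mitochondrially encoded genes the linker sum was 634 TPM in MMA+FA, 809 in MMA, 694 in FA and 608 in control cells. In that order the variant sum was 2571, 2681, 2389 and 2303 TPM, and the core sum 47.6, 61.7, 56.5 and 59.4 TPM. Every one of these mean sums was higher than on the TPM scale as deposited, and the order of the groups in each class was unchanged. Leaving out 1 library gave 3588 to 5255 genes and 3 to 10 histone genes for MMA+FA against control, 1128 to 2956 and 5 to 9 for MMA, 180 (without control 3) to 2462 (without FA 2) and 0 to 5 for FA, 833 to 1896 and 4 to 5 for MMA+FA against MMA, 283 to 1960 and 1 to 8 for MMA+FA against FA, and 63 to 459 and 3 to 5 for the interaction. Deviations of same-numbered libraries correlated at -0.12 to 0.10 over 18 pairs. A weak correlation over genes cannot tell whether replicate numbers paired the samples, and the main fit did not pair them. With the replicate block the genes called were 4623, 2142, 1247, 1470, 880 and 182 in the order above, and the histone calls 8, 5, 2, 4, 3 and 3.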

Other observations

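Beside the histone genes above, 2 genes whose symbols fall outside the naming rule were looked at after their values were seen. H4f3 is described in the table as a linker histone cluster member despite its symbol. It had 0.820, 0.580 and 0.620 TPM in MMA+FA cells, 1.03, 0.940 and 0.880 in MMA cells, 0.910, 0.750 and 0.890 in FA cells, and 0.950, 1.05 and 1.46 in control cells. The MMA+FA libraries were below all control libraries, and the difference in limma was -0.36 (adjusted p = 0.0262). Hinfp, the histone H4 transcription factor, had 9.19, 8.61 and 9.48 TPM in MMA+FA cells and 10.8, 9.85 and 11.8 TPM in control cells, with a difference of -0.23 (adjusted p = 0.0387). It was not called in MMA cells (-0.14) or FA cells (-0.09) against control. The other fits were not read for H4f3 or Hinfp, so whether their calls hold there is not known here. The typical gene was at -0.11 in MMA+FA cells against control.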
